A study of Mus musculus with 6 samples.

Results

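The Schlafen genes described here are Slfn1, Slfn2, Slfn3, Slfn4, Slfn5, Slfn8 and Slfn9 of the mouse. They were taken by symbol from the deposited count table, where all 7 names had a row among 23842 genes. Gene expression had been measured by sequencing total RNA of cultured mouse embryonic fibroblasts, cells grown out of embryos, of C57BL/6 background. All were untreated and grown in high-glucose medium with fetal bovine serum. The design set 3 libraries labelled NGLY1-/- (knockout) against 3 wild-type libraries labelled WT. NGLY1 is the cytosolic enzyme that strips N-linked glycans from misfolded glycoproteins. The labels do not say how the allele was made, how old the embryos were, or whether the 3 libraries of each genotype stem from different embryos or cultures. The p-values therefore reflect variation among these libraries, possibly only technical variation.

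Schlafen genes, named after the German word for sleeping, were first described in mouse thymocytes, where some members hold back cell growth. Many are induced by type I interferon, and several Schlafen proteins act on transfer RNA and protein synthesis: human SLFN11 cleaves transfer RNA and restricts viral protein synthesis. All share an N-terminal core. In the mouse, Slfn1 and Slfn2 encode short proteins, Slfn3 and Slfn4 intermediate ones, and Slfn5, Slfn8, Slfn9 and Slfn14 long ones that add a helicase-like part.

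Depth was 33007239 to 37841558 counts per knockout-labelled library and 27323577 to 37790710 per wild-type library. Ngly1 counts were 618, 420 and 457 in the knockout-labelled group, against 668, 632 and 307 in the wild-type group. A count over a whole gene does not show whether part of it was deleted, so the genotypes rest on the labels. Levels are given in CPM, counts scaled to one common library size with TMM factors. Differences were tested with edgeR's quasi-likelihood test over 15039 genes, with a false discovery rate of 0.05. Of those genes 60.9% were called, 30.7% as higher and 30.2% as lower in the knockout-labelled libraries, so a single call is common in these data. Only 13.6% were called higher by at least 2-fold, 5.55% by at least 4-fold and 2.07% by at least 16-fold. The 12 fibroblast markers, of which Lum was nearly absent with 1 count in the knockout-labelled group and 2 in the wild-type group, summed to 10506 to 11736 CPM per knockout-labelled library and 7323 to 8209 CPM per wild-type library. Fn1 decided that direction: without it the sums were 3655 to 4184 CPM per knockout-labelled library and 5227 to 5874 CPM per wild-type library. Of 11 tested markers, 2 (Fn1 and Dcn) were called higher and 6, Vim among them, lower.

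Every Schlafen gene of the set had a higher CPM in each knockout-labelled library than in any wild-type library. Among all tested genes, the groups did not overlap for 67.3%, and 33.8% were higher in that way in the knockout-labelled libraries. In bulk RNA, more cells of a kind and more RNA per cell cannot be told apart. The sizes differed widely, with log2 fold changes of 1.55 to 9.02 over the 6 genes that could be tested. Slfn2, Slfn3, Slfn5 and Slfn9 had enough reads in either group to pass the filter on low counts, and all 4 were called higher. Slfn4 and Slfn8 passed through their knockout-labelled libraries, so that a difference was built into their passing. Slfn1 did not pass. With these included, 6 genes were called higher by at least 2-fold, 5 by at least 4-fold and 4 by at least 16-fold.

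**Figure D1:**
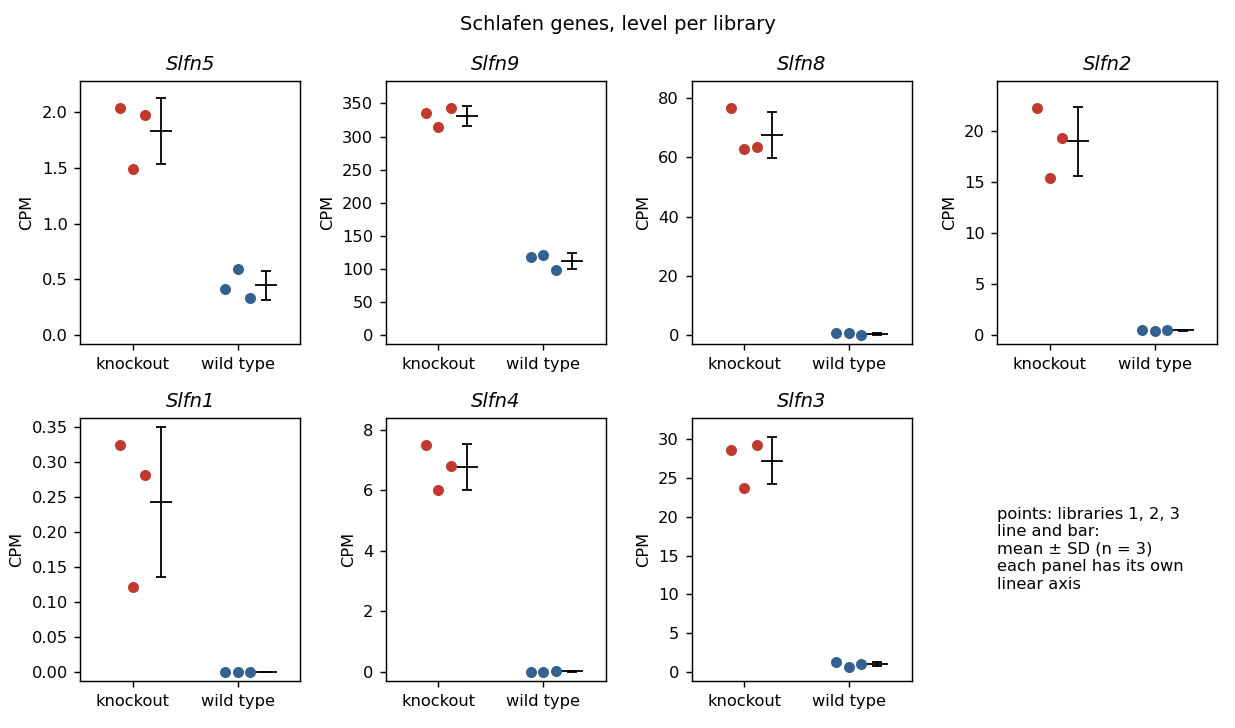
Level of each Schlafen gene in CPM on a linear axis of its own, with knockout-labelled libraries on the left and wild-type libraries on the right. Points are libraries, and the line and bar give the mean ± SD (n = 3). In every panel the groups do not overlap, from Slfn1, at most 0.324 CPM, to Slfn9, at least 314 CPM in the knockout-labelled libraries.

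The genes lie side by side on chromosome 11, within 263.806 kb from 82951349 to 83215154 (GRCm38, the assembly that mm10 denotes). In order of position they are Slfn5, Slfn9, Slfn8, Slfn2, Slfn1, Slfn4 and Slfn3. Slfn9 and Slfn8 are transcribed from the minus strand and the other 5 from the plus strand. Their coding sequences fall into the known size classes: 1014 bases in Slfn1, 1137 in Slfn2, 1809 in Slfn4, 1923 in Slfn3, 2655 in Slfn5, and 2733 in both Slfn8 and Slfn9. The pairs most alike were Slfn8 and Slfn9, identical at 92.7% of 2733 aligned coding bases, and Slfn3 and Slfn4, identical at 92.2% of 1781 aligned bases. Slfn1 and Slfn2 were identical at 71.7% of 1001 aligned bases, and Slfn5 was at most 64.6% identical to another of the set.

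Among the short members, Slfn2 (gene ID 20556; 83065112 to 83070678) keeps T cells quiescent in the mouse and protects transfer RNA from cleavage. It had 22.2, 15.4 and 19.3 CPM in the knockout-labelled libraries and 0.492, 0.385 and 0.512 CPM in the wild-type libraries. The lowest knockout-labelled value was thus far above the highest wild-type value. Slfn2 averaged 18.9 ± 3.40 CPM in the knockout-labelled group, against 0.463 ± 0.0681 CPM in the wild-type group (SD, n = 3 each), a log2 fold change of 5.35 ± 0.22 (SE), or 40.9-fold, and the test returned 7.64e-08 (edgeR, adjusted p).

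Slfn1 (gene ID 20555; 83116820 to 83122670), whose overexpression stops the growth of mouse thymocytes, was close to the limit of detection. Its counts were 11, 4 and 10 in the knockout-labelled group, against 0, 0 and 0 in the wild-type group. Against a floor of 3 counts over the wild-type group it was at least 8.72-fold higher, or 6.58-fold at the lower 95% counting limit. A count of 0 over the wild-type group allows up to 0.0280 CPM. An exact two-sided permutation test over the 6 libraries gave p = 0.1, the smallest value that 3 against 3 can give. Without the low-count filter, edgeR called it higher with an adjusted p of 0.000624.

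Of the intermediate members, Slfn3 (gene ID 20557; 83191330 to 83215154), studied in T cells and in the differentiation of gut epithelium in rodents, ranked behind Slfn2 by fold change. It had 28.6, 23.8 and 29.3 CPM in the knockout-labelled libraries, against 1.20, 0.668 and 1.06 CPM in the wild-type libraries. The groups were far apart. The means were 27.2 ± 3.01 CPM in the knockout-labelled group and 0.978 ± 0.278 CPM in the wild-type group (SD, n = 3 each), a log2 fold change of 4.80 ± 0.21 (SE), or 27.9-fold (edgeR adjusted p = 9.41e-08).

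Slfn4 (gene ID 20558; 83175172 to 83190216), a gene of the mouse myeloid lineage that macrophages raise on activation, had the largest fitted fold change of the set. Its counts were 254, 197 and 241 in the knockout-labelled group, against 0, 0 and 1 in the wild-type group. The knockout-labelled mean was 6.76 ± 0.744 CPM (SD, n = 3). The ratio of scaled summed counts was 724, with a 95% counting interval of 130 to 28646. The only wild-type count was in replicate 3. Without that library the wild-type group had 0 counts, and Slfn4 was at least 180-fold higher against the floor of 3 counts, or 146-fold at the lower counting limit. The fitted log2 fold change of 9.02 (edgeR adjusted p = 3.77e-07) was the seventh largest of the tested genes, but depends on how a near-absent group is fitted.

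Among the long members, Slfn9 (gene ID 237886; 82974316 to 82991830), a little-studied gene, was readily detected in wild-type cells. It had 336, 314 and 343 CPM in the knockout-labelled libraries and 118, 122 and 98.9 CPM in the wild-type libraries. The groups were well separated, although the change was the smallest of the tested members. The means of 331 ± 14.8 CPM in the knockout-labelled group and 113 ± 12.1 CPM in the wild-type group (SD, n = 3 each) gave a log2 fold change of 1.55 ± 0.11 (SE), or 2.94-fold (edgeR adjusted p = 1.37e-06).

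Slfn8 (gene ID 276950; 83002125 to 83020810), whose overexpression alters T-cell development in the mouse, had a much larger fold change than its near-identical neighbour Slfn9. It had 76.6, 62.7 and 63.5 CPM in the knockout-labelled libraries and 0.688, 0.642 and 0.146 CPM in the wild-type libraries, the last from 4 counts. Wild-type replicate 3 was thus lower than its group, while the knockout-labelled libraries lay close together. Slfn8 averaged 67.6 ± 7.81 CPM in the knockout-labelled group, against 0.492 ± 0.300 CPM in the wild-type group (SD, n = 3 each), a log2 fold change of 7.0 ± 0.29 (SE), or 128-fold (edgeR adjusted p = 1.90e-07).

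Slfn5 (gene ID 327978; 82951349 to 82964850), which has a human counterpart of the same name, was expressed at a low level. Its counts were 69, 49 and 70 in the knockout-labelled group, against 17, 23 and 9 in the wild-type group. The groups did not overlap, with means of 1.83 ± 0.296 CPM in the knockout-labelled group and 0.446 ± 0.133 CPM in the wild-type group (SD, n = 3 each). The log2 fold change was 2.01 ± 0.34 (SE), or 4.04-fold (edgeR adjusted p = 0.000601). Slfn5 overlaps the noncoding gene Slfn5os on the other strand, and no strand setting of the counting is given in the sources used here, so its reads and those of Slfn5os cannot be told apart.

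Near-identical genes could also exchange reads. Of the 50-base pieces of the longest annotated transcript, 15.4% of those of Slfn8 and 11.9% of those of Slfn9 also occur in a transcript of another gene, mostly the pseudogene Slfn10-ps or each other. The share was 18.5% for Slfn3, 11.6% for Slfn4, 11.8% for Slfn5, 4.27% for Slfn2 and 0.606% for Slfn1. In 100-base pieces it was at most 6.85%, for Slfn5. Slfn9 had 4.38, 5.01 and 5.40 reads for each Slfn8 read in the knockout-labelled libraries, against 171, 189 and 676 in the wild-type libraries. In the wild-type group 12219 reads were counted to Slfn9 and 57 to Slfn8, against 33857 and 6905 in the knockout-labelled group. For Slfn3 and Slfn4 the counts were 104 and 1 in the wild-type group, against 2789 and 692 in the knockout-labelled group. Exchange of reads between these genes was not tested.

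The make-up of the family's RNA differed between the groups. The 7 genes summed to 453 ± 26.1 CPM in the knockout-labelled libraries and 115 ± 12.3 CPM in the wild-type libraries (SD, n = 3 each). Slfn9 supplied 73.0% ± 1.77 of the family's counts in the knockout-labelled group and 97.9% ± 0.241 in the wild-type libraries. Slfn8 made up 14.9% ± 1.25 of them in the knockout-labelled libraries and 0.412% ± 0.233 in the wild-type libraries. Slfn3 made up 5.99% ± 0.355 in the knockout-labelled libraries and 0.863% ± 0.282 in the wild-type libraries, while Slfn2 made up 4.16% ± 0.528 in the knockout-labelled group and 0.409% ± 0.0981 in the wild-type group (SD, n = 3 each). Without Slfn9, the sum was 123 ± 14.0 CPM in the knockout-labelled libraries and 2.39 ± 0.370 CPM in the wild-type libraries. With 3 libraries a group, and with members chosen while results were known, these sums and shares are a description with no test.

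**Figure D2:**
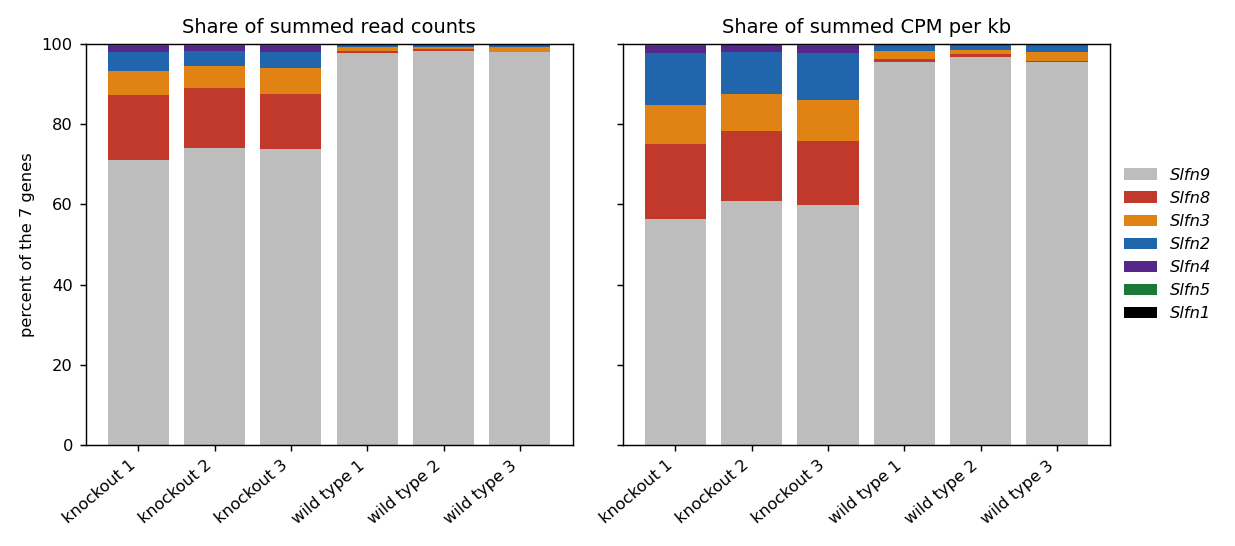
Share of each Schlafen gene in the sum over the 7 genes, in percent, per library, from read counts (left) and from CPM divided by the length of the longest annotated transcript (right). Slfn9 supplies at most 74.2% of the counts in the knockout-labelled libraries and at least 97.7% in the wild-type libraries.

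Levels can be compared between genes only per length, here as CPM per kb of the longest annotated transcript. In the knockout-labelled libraries the level was 57.4 ± 2.56 CPM per kb for Slfn9, 16.8 ± 1.95 for Slfn8, 11.4 ± 2.05 for Slfn2, 9.61 ± 1.06 for Slfn3, 1.71 ± 0.188 for Slfn4, 0.307 ± 0.0496 for Slfn5 and 0.130 ± 0.0573 for Slfn1 (SD, n = 3). Slfn2 and Slfn3 overlapped in that order, and the other neighbours did not. In the wild-type libraries Slfn9 had 19.5 ± 2.10 CPM per kb, Slfn3 0.345 ± 0.0980, Slfn2 0.278 ± 0.0409, Slfn8 0.123 ± 0.0749 and Slfn5 0.0746 ± 0.0222 (SD, n = 3). There Slfn3 overlapped with Slfn2, and Slfn8 with Slfn5, while Slfn9 stood far above and Slfn4 and Slfn1 were at or near 0. The longest transcript of Slfn3 is annotated as noncoding. Slfn8 thus stood above Slfn2 and Slfn3 per length in the knockout-labelled libraries and below both in the wild-type libraries.

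The lowest knockout-labelled library was the same across the family. Knockout-labelled replicate 2 was the lowest of its group for 7 of the 7 genes, and replicate 1 the highest for 5. Among all tested genes, 29.5% were lowest in that replicate 2, and among 40 interferon-stimulated genes 20 were. Wild-type replicate 3 was the lowest of its group for Slfn5, Slfn8 and Slfn9. It was also the lowest for 34 of the 40 interferon-stimulated genes, against 42.5% of all tested genes.

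Promoter sequence was read from RefSeq windows reaching 250 bases before and 50 after an annotated start (GRCm38.p6), which were found for 7 of the 7 genes. The interferon-stimulated response element (ISRE), through which type I interferon induces many genes, was searched on both strands as GAAA, any 2 bases and GAAA again. It occurred in the windows of Slfn5, Slfn8 and Slfn9, and in 3.44% of all 32851 windows. Of 30 interferon-stimulated genes with a window under their listed symbol, 15 had a match, 50% of them. The gamma-activated sequence, searched as TTCNNNGAA, occurred in 0 of the 7 windows and in 8.30% of all windows. The promoters of Slfn9 and Slfn8 are printed because the near-identical genes changed by such different amounts. Each is the 250 bases before the start, 5′ to 3′ on the gene's strand, with the ISRE match in capitals as read on that strand.
Slfn9: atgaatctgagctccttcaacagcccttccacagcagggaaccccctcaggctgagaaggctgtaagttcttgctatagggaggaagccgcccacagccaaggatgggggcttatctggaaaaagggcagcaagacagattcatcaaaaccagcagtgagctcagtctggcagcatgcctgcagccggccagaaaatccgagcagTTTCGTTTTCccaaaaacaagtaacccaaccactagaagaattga
Slfn8: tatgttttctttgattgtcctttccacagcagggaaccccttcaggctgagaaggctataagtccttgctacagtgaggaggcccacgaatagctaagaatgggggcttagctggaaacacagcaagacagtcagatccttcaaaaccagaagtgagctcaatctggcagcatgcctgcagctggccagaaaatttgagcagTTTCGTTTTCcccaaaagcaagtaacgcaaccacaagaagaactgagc
The Slfn9 promoter is chr11:82991831-82992080 (minus strand) and the Slfn8 promoter chr11:83020811-83021060 (minus strand). They were identical at 85.1% of 242 aligned bases. Both carry the same 10 bases, 45 bases before the start in Slfn9 and 48 before the start in Slfn8, counted to the first base of the match. Slfn8 also has a window for another annotated start (chr11:83020673-83020972). From that start the match lies 136 bases before, so its distance depends on the start used. The match is therefore present both at the gene that was 128-fold higher and at the gene that was 2.94-fold higher.

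The windows of Slfn1, Slfn2, Slfn3 and Slfn4 held no ISRE match. A shorter interferon-element core, AANNGAAA, chosen after the sequences were seen and overlapping with the longer motif, occurred on either strand in 7 of the 7 windows and in 23.9% of all windows. The short and intermediate members share another stretch. The longest run common to the 250 bases before the start of all 4, ACTTCCTGG, found after the sequences were seen, occurs on either strand in 0.843% of all windows. On the same strand and within the 250 bases before the start, the share is 0.347%. The run lies within 74 bases of the start in each. It is absent on either strand from the 250 bases before the start of Slfn5, Slfn8, Slfn9 and Slfn14. The rest of their windows and the other start of Slfn8 were not searched for it. The pieces below show it in capitals for these 4 genes, with the ISRE match of Slfn5 in capitals after them.
Slfn1: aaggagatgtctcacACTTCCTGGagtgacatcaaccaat
Slfn2: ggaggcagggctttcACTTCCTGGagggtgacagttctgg
Slfn3: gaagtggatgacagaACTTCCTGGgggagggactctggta
Slfn4: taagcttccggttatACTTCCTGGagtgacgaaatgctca
Slfn5: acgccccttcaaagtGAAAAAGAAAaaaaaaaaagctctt
The pieces lie on the plus strand, at chr11:83116731-83116770 for Slfn1, chr11:83065042-83065081 for Slfn2, chr11:83191273-83191312 for Slfn3, chr11:83175098-83175137 for Slfn4 and chr11:82951932-82951971 for Slfn5. The Slfn5 piece lies inside the annotated range of the gene, which begins at 82951349, because its window belongs to a start further in. A match is a description of sequence and shows no binding.

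Other Schlafen rows were few and mostly low in counts. Slfn10-ps, a pseudogene between Slfn8 and Slfn2, was counted 130, 116 and 151 times in the knockout-labelled group, against 20, 9 and 10 times in the wild-type group. Like Slfn4 and Slfn8 it passed the filter only through its knockout-labelled libraries, so that a difference was built in. It averaged 3.88 ± 0.363 CPM in the knockout-labelled group, against 0.363 ± 0.130 CPM in the wild-type group (SD, n = 3 each), or 10.6-fold (edgeR adjusted p = 1.31e-05). Slfn14, whose human counterpart is mutated in an inherited shortage of platelets, was not tested. Its counts were 4, 4 and 9 in the knockout-labelled group, against 1, 0 and 0 in the wild-type group. The ratio of its scaled summed counts was 17.8, with a counting interval of 2.79 to 744. Slfnl1, a Schlafen-like gene on chromosome 4, had 4, 4 and 3 counts in the knockout-labelled group, against 8, 10 and 10 in the wild-type group. The ratio of its scaled summed counts was 0.411, with a counting interval of 0.185 to 0.852, and without the filter its adjusted p in edgeR was 0.192. The Slfn4 pseudogene Gm11427 had 1 count in the knockout-labelled group and 4 counts in the wild-type group.

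Genes around the cluster did not reach the log2 fold changes of Slfn8, Slfn2, Slfn4 and Slfn3. Nle1 and Mmp28, at 1.99 and 2.06, were in the range of Slfn5 (2.01) and above Slfn9 (1.55). Of 26 other tested genes within 1 Mb of the cluster, 9 were called higher and 5 lower, or 14 of 26 beside 60.9% of all tested genes. Their log2 fold changes ran from -2.61 to 2.06, with a median of 0.25 beside -0.04 for all tested genes. The nearest tested gene before Slfn5 was Nle1, which encodes a ribosome assembly factor and had a log2 fold change of 1.99 ± 0.24 (SE; edgeR adjusted p = 0.000101). The nearest tested gene after Slfn3, AA465934, stood at -0.19 (adjusted p = 0.747). LOC102635048, inside the cluster between Slfn8 and Slfn10-ps, had 223 counts over the knockout-labelled group and 331 over the wild-type group, a log2 fold change of -0.63 (adjusted p = 0.259). LOC102635154, within the span of Slfn2, was not tested and had 2, 2 and 3 counts in the knockout-labelled group, against 0, 0 and 0 in the wild-type group. Unc45b and AI662270, the nearest rows of any kind on either side, had 1 and 11 counts over the knockout-labelled group and 0 and 34 over the wild-type group and were not tested.

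**Figure D3:**
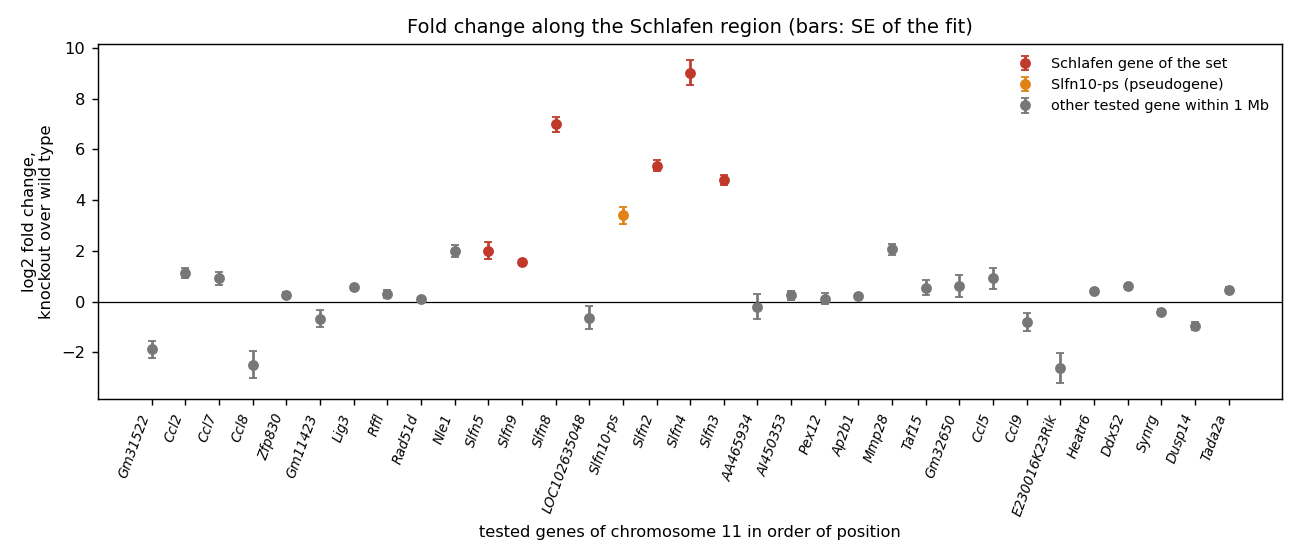
Log2 fold change, knockout over wild type, of tested genes on chromosome 11 in order of position, with bars for the SE of the fit. Red points are the Schlafen genes, orange the pseudogene Slfn10-ps and grey the other tested genes within 1 Mb. Slfn8, Slfn2, Slfn4 and Slfn3 stand at 4.80 to 9.02, while no grey point exceeds 2.06. Slfn5 and Slfn9, at 2.01 and 1.55, lie within the range of the grey points.

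The type I interferon pathway, which runs from the receptor through JAK kinases to transcription factors, gave calls in both directions. Of 18 tested genes, 10 were called higher and 5 lower, beside 30.7% and 30.2% of all tested genes, and the median stood at 0.41 on the log2 scale. Irf7, the interferon-amplifying transcription factor gene, averaged 130 ± 3.34 CPM in the knockout-labelled libraries and 1.61 ± 0.813 CPM in the wild-type libraries (SD, n = 3 each), with a log2 fold change of 6.27. Irf9, which encodes an ISRE-binding transcription factor, had a log2 fold change of 3.43, and Usp18, a brake on the receptor, one of 5.79 (edgeR adjusted p of 1.13e-06 or less for all 3).

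Of the interferon genes, Ifnb1 and Ifna4 were on the list and had few reads. Ifnb1 counts were 2, 7 and 1 in the knockout-labelled group, against 0, 0 and 0 in the wild-type group. Ifna4 counts were 1, 0 and 2 in the knockout-labelled group, against 0, 0 and 0 in the wild-type group. Both were named after their values were seen.

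Of 40 interferon-stimulated genes, 38 were called higher and 0 lower, beside 30.7% and 30.2% of all tested genes. The median stood at 3.96 on the log2 scale, beside -0.04 for all tested genes. Oas1a, Xaf1, Ifi44 and Rtp4 had the smallest p, with log2 fold changes of 6.18, 5.10, 8.45 and 4.72. Set beside these 40, Slfn8 was exceeded in fold change by 3, Slfn2 by 9 and Slfn3 by 12. Slfn4 cannot be ordered against the highest of them. Its fitted value exceeds all 40, but its bound of at least 180-fold lies below the fitted folds of Oas2, Oas3 and Ifi44. Those were 192, 294 and 351. The next fitted fold of the list, 75.3 for Zbp1, lies below that bound. Slfn5 and Slfn9 were exceeded by 33 and 35. This list and the Schlafen set were chosen with results of these data known, so the side-by-side values are a description.

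**Figure D4:**
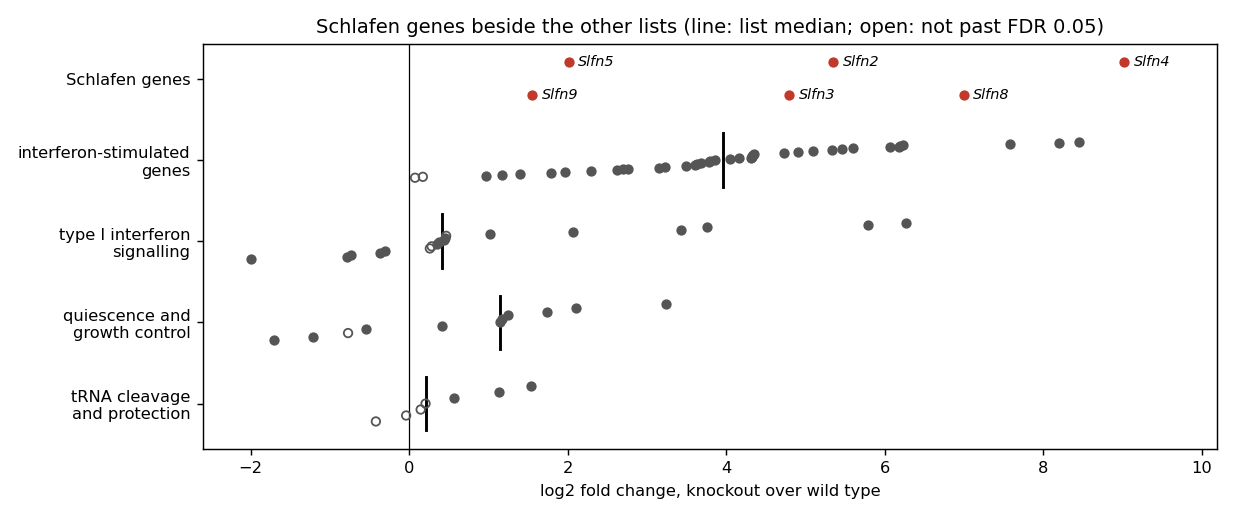
Log2 fold change, knockout over wild type, of the 6 tested Schlafen genes (red, named) above the tested genes of 4 other lists. Filled points passed a false discovery rate of 0.05, open points did not, and a vertical line marks the median of each of the other lists. Slfn9 and Slfn5 lie at 1.55 and 2.01, below the interferon-stimulated median of 3.96, and Slfn3, Slfn2, Slfn8 and Slfn4 lie above it.

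Genes of transfer RNA cleavage and protection, the process in which Slfn2 acts, numbered 7 among those tested. Of these, 3 were called higher and 0 lower, beside 30.7% and 30.2% of all tested genes. The count ran from 2 to 5 over the alternatives, with 2 when knockout replicate 1 or 2 or wild-type replicate 1 or 2 was left out, and 5 without both libraries numbered 3. Elac2, the transfer RNA 3′-end nuclease gene, was 2.20-fold higher (edgeR adjusted p = 0.000234). Nsun2 and Trdmt1, which encode transfer RNA methyltransferases, were 2.92-fold and 1.49-fold higher (adjusted p = 0.000536 and 0.029). Eif2ak4, a kinase activated by uncharged transfer RNA, stood at 0.15 on the log2 scale (adjusted p = 0.167).

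Quiescence and growth control genes, listed as tied to Slfn2, were called higher for 7 of 11 and lower for 3, in data where 60.9% of all tested genes were called. The tie to Slfn2 was not tested. Klf4 and Btg1, which restrain proliferation, and Btg2, of the same family as Btg1, had log2 fold changes of 2.10, 1.24 and 1.74. Cdkn1b, the gene of the cell cycle inhibitor p27, averaged 18.7 ± 3.30 CPM in the knockout-labelled libraries and 60.6 ± 10.7 CPM in the wild-type libraries (SD, n = 3 each), a log2 fold change of -1.70 (edgeR adjusted p of 3.09e-05 or less for all 4). Myc had the largest log2 fold change of the list, 3.24 (edgeR adjusted p = 0.00424). Tob1 and Foxo1 were the other genes called lower, at -1.21 and -0.54. Myc, Tob1 and Foxo1 were named after their values were seen.

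Because Schlafen genes are best known from myeloid cells and T cells, markers of those cells are given beside them. The 10 myeloid markers of 13 that had a row summed to 9.44 to 10.7 CPM per knockout-labelled library and 6.62 to 10.0 CPM per wild-type library. Over the knockout-labelled group Ptprc, the pan-leukocyte marker, had 0 counts, Spi1 1 and Lyz2 1, against 3, 23 and 0 over the wild-type group. Csf1r and Itgam had 7 and 3 counts over the knockout-labelled group, against 22 and 7 over the wild-type group. Fcer1g and Fcgr1 had 24 and 1 counts over the knockout-labelled group, against 11 and 0 over the wild-type group. Of the 3 tested myeloid markers, Cd14 was called higher, with 711 counts over the knockout-labelled group and 473 over the wild-type group (1.61-fold, edgeR adjusted p = 0.015). Coro1a was called lower, with 39 counts over the knockout-labelled group and 154 over the wild-type group (adjusted p = 0.00266), and Cd68 was not called. The 4 T lymphocyte markers of 9 that had a row summed to 17.4 to 18.6 CPM per knockout-labelled library and 1.10 to 2.53 CPM per wild-type library. Nearly all of this was Lck, a Src-family kinase gene, with counts of 631, 599 and 613 in the knockout-labelled group, against 102, 75 and 29 in the wild-type group. The part of the Lck, Cd14 and other marker differences in the Schlafen values was not tested. Cd4 and Zap70 had 0 counts in the knockout-labelled group and 1 and 9 in the wild-type group. No row was found for Cd3d, Cd3e, Cd3g, Cd2 and Cd8a. The 4 endothelial markers of 7 with a row summed to 2.73 to 2.86 CPM per knockout-labelled library and 1.49 to 2.20 CPM per wild-type library. Most of this was Kdr, with 224 counts over the knockout-labelled group and 118 over the wild-type group (1.93-fold, edgeR adjusted p = 0.0148). Tek, with 53 and 23 counts over these groups, was not called. Pecam1 and Cdh5 were not tested and went the other way. They had 2 and 6 counts over the knockout-labelled group, against 27 and 17 over the wild-type group.

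The genes most alike in pattern were sought by the root mean square difference over the 6 libraries of log2 CPM less its wild-type mean. Slfn2 was close to Tmem47, with a difference of 0.104 on that log2 scale. Phf11b was nearest to Slfn4 (0.153), with counts of 286, 248 and 250 in the knockout-labelled group, against 0, 0 and 1 in the wild-type group, and LOC101055758 was next (0.311). Iigp1, an immunity-related GTPase gene, was nearest to Slfn8 (0.319), with counts of 3600, 2713 and 3059 in the knockout-labelled group, against 40, 28 and 3 in the wild-type group. Like Slfn8 it was lowest in wild-type replicate 3, a library that the choice by pattern itself takes in. H2-Q6, an MHC class I gene with near-identical relatives, came next (0.354). Slfn9 was closest to Acot8 (0.0456) and Slc4a11 (0.0651), whose log2 fold changes were 1.5 and 1.57. Slfn3 was closest to Gm22118 (0.175) and Fuom (0.18).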

How the data were processed

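Per the labels' protocols, cells were lysed in Trizol and a TruSeq Stranded Total RNA kit was used. The authors deposited unnormalized counts, whole numbers for each NCBI Gene ID in 6 libraries. The submitters' processing notes name STAR 2.5.1b and mm10. How reads were counted, against which annotation and on which strand, is not given in the sources used here. Table columns were matched to samples by group and number, and 0 rows named no gene.

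Counts were tested in R 4.3.3 with edgeR 4.0.16 (filterByExpr, TMM scaling, robust quasi-likelihood test of genotype without covariates, two-sided, Benjamini-Hochberg adjustment). SEs are the size of the log2 fold change divided by the root of the F statistic. Ratios of genes with 0 to 3 counts in a group, and that of Slfnl1, use summed counts with exact 95% intervals, which cover counting error only. The steps were also tested on simulated data. Motifs, coding sequences and 50- and 100-base pieces came from RefSeq promoter windows and GENCODE M21 transcripts, aligned with Biopython 1.88. Proteins were not compared, and coding sequences were used in their place.

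The members and lists were chosen with earlier results of these data known. Named genes were all members, other Schlafen rows, the nearest neighbours, the 4 smallest p of each list, and the 2 nearest patterns for members with a mean of at least 100 counts in the higher group. Some genes that this rule names are not reported here. Alternatives were DESeq2 1.42.0 size factors and test, limma-voom (limma 3.58.1), scaling by library totals, other filters, the replicate number as a block, and each library left out. Leaving out both libraries numbered 3 was added after seeing the data.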

Additional observations from a re-analysis of the deposited data

How the results depend on the processing

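The 6 tested Schlafen genes stayed higher in the knockout-labelled libraries and past the threshold under each of the 14 alternatives run, with adjusted p of at most 0.00476, for Slfn5 without knockout replicate 1. Slfn4 and Slfn8 passed the main filter only through their knockout-labelled libraries, so that a difference was built into their passing. With a filter of at least 1 CPM in 3 libraries, the same held for Slfn2, Slfn3 and Slfn5. The Slfn4 log2 fold change ran from 8.36 in limma-voom to 10.96 with both libraries numbered 3 left out, and was 10.95 without wild-type replicate 3, which holds its only wild-type count. Slfn8 ran from 6.67 to 7.28, Slfn2 from 5.23 to 5.50, Slfn3 from 4.58 to 5.01, Slfn5 from 1.82 to 2.28 and Slfn9 from 1.43 to 1.62. With no low-count filter all 7 members were called higher, and 2 of the other Schlafen rows, Slfn10-ps and Slfn14. In that setting 9813 of all 23842 genes were called, 4935 of them higher. Without TMM factors, all genes moved by -0.12 in median log2 fold change, and 42.4% of calls were higher beside 50.4%. Calls over all genes ran from 8166 to 10203 with 1 library left out. The list of transfer RNA cleavage and protection, with 3 calls, had 2 under library totals only, 2 to 4 with 1 library left out and 5 with both libraries numbered 3 left out, and the cause was not tested. Replicate numbers carry no stated pairing. Deviations of same-numbered libraries correlated at 0.0961, 0.0138 and 0.209, not every library was most like its own number, and with the replicate block 9253 genes were called, beside 9160, and the same 6 members.

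Per length in place of raw counts, the mean shares of the family in the knockout-labelled libraries were 59.0% for Slfn9, 17.3% for Slfn8, 11.6% for Slfn2, 9.85% for Slfn3, 1.75% for Slfn4, 0.314% for Slfn5 and 0.131% for Slfn1. The difference lies in dividing by length. Depth limits Slfn1 and Slfn14, with at most 11 counts in any library.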
